A study of Homo sapiens with 647 samples.

Results

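E2F1, E2F2, E2F7, E2F8, MYBL2 and FOXM1, 6 transcription factor genes of the cell cycle, were measured in T47D cells given FGF receptors, FGF ligand and drugs. They were taken by name from a count table of 54592 genes and are 6 of those 54592. E2F1 and E2F2 are activating E2F factors, E2F7 and E2F8 are atypical E2F factors that repress, MYBL2 (B-MYB) works with the MuvB complex, and FOXM1 is a forkhead factor of genes used in G2 and mitosis.

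In a resting cell the retinoblastoma protein RB holds the activating E2F factors on their target promoters in a silent state. Cyclin D with CDK4 or CDK6 starts the phosphorylation of RB, and the freed E2F factors then raise the genes of DNA synthesis together with their own genes, those of the atypical E2F factors and MYBL2. The MuvB core, bound to MYBL2 and then FOXM1, raises the genes of G2 and mitosis, while E2F7 and E2F8 close the E2F wave. In oestrogen receptor positive breast cancer cells, of which T47D is a luminal line, both oestrogen receptor and growth factor signalling feed into cyclin D.

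T47D cells were infected with lentivirus in the pLX307 plasmid, plated for 48 hours in 96-well plates and treated for 24 hours, and RNA was sequenced by SMART-Seq2. The lines carried FGFR1, wild-type FGFR2, FGFR2 M538I, FGFR2 N550K, FGFR2 K660N or the ligand FGF3, and were set against GFP and uninfected parental cells, which are called the control lines here. Treatments were single or combined: palbociclib (1 µM), a CDK4/6 inhibitor, FIIN-3 (100 nM), a covalent FGFR inhibitor, trametinib (500 nM), a MEK inhibitor, FGF2, a ligand of FGF receptors whose dose is not given in the sources used here, fulvestrant (100 nM), which degrades the oestrogen receptor, and the vehicle DMSO. Numbers in the titles run through their range 2 times, with different treatments, and each run was analysed apart. The 647 libraries fall into 64 groups of line and treatment in set 1 and 48 groups in set 2, with 4 to 6 libraries in a group. In set 1, 7 lines had DMSO, FGF2, fulvestrant, fulvestrant with FGF2, FGF2 with FIIN-3, and fulvestrant with FGF2 and one of FIIN-3, trametinib or palbociclib. In set 2 the same 7 lines had FIIN-3, palbociclib, palbociclib with FGF2, palbociclib with FGF2 and FIIN-3, and fulvestrant, palbociclib and FGF2 with FIIN-3 or trametinib. The FGF3 line makes its own ligand and had no arm with FGF2. Its set 2 group labelled control is called untreated here, as that label names no drug and no vehicle. The labels do not say whether a line was 1 clone or a pool, nor whether replicate wells came from separate cultures, so p-values measure the spread between these libraries, which may be technical.

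The promoters are shown because E2F factors are known to bind their own promoters, and the word content of 4 of the 6 was read from RefSeq sequence (GRCh38.p14, from 250 bases before to 50 bases after the gene's start, in the gene's own direction, other than the build hg19 of the counts). E2F2 lies at chr1:23531184-23531483 on the minus strand, E2F7 at chr12:77065520-77065819 on the minus strand, E2F1 at chr20:33686336-33686635 on the minus strand and MYBL2 at chr20:43666864-43667163 on the plus strand. E2F8 and FOXM1 are named only. Capitals mark the E2F word (TTTCCCGC, TTTCGCGC, TTTGCCGC or TTTGGCGC) and the CCAAT word, each on either strand.
E2F1: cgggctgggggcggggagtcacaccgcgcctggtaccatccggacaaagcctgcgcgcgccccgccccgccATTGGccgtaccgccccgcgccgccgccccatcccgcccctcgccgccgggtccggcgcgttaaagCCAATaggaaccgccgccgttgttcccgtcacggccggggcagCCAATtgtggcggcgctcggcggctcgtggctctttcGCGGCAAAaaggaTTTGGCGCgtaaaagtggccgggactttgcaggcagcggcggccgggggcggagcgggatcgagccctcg
E2F2: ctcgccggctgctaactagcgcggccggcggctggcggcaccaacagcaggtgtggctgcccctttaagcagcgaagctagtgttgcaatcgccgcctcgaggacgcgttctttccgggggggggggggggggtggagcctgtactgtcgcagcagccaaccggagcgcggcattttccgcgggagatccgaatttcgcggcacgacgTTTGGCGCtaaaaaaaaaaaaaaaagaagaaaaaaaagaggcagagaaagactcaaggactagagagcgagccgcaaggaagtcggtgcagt
E2F7: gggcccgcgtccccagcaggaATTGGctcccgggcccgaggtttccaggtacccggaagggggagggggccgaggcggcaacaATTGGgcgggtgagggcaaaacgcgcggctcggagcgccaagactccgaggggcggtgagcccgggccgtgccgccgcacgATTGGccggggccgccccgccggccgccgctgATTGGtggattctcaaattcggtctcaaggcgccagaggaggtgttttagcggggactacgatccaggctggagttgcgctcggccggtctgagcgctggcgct
MYBL2: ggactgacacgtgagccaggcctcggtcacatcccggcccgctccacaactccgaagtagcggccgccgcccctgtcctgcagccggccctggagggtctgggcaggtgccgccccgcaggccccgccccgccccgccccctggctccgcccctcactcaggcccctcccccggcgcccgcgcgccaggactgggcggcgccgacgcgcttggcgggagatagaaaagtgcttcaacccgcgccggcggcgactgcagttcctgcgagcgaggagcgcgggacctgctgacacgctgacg
The E2F1 stretch holds 2 E2F words, 33 and 20 bases before the start, the first of them on the opposite strand, and 3 CCAAT words. E2F2 holds 1 E2F word, 42 bases before the start, and E2F7 holds 4 CCAAT words, all on the opposite strand. MYBL2 holds none of these words, and none of the 4 stretches holds the CHR word TTTGAA on either strand. Only exact matches were counted, so the absence of a word does not show the absence of a binding site. None of the words found overlap. Over 35116 promoters of the same length, 3.31% hold an E2F word, 34.6% a CCAAT word and 15.2% the CHR word. GC content is 73.3% in E2F1, 59.7% in E2F2, 70.7% in E2F7 and 75.3% in MYBL2.

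Total counts per library ran from 512961 to 13012180 (median 7570052.5) in set 1 and from 619509 to 4804935 (median 2887186) in set 2, and the FGF3 line of set 1 was shallower than the rest (median 3403813). The mitochondrial transcript MT-RNR2 took a median of 18.03% of counts in set 1 and 18.9% in set 2, but under 5% in 14 libraries of set 1 and 2 of set 2, and 8 of those 14 were DMSO libraries. These libraries stand apart, and results that move without them are given both ways. Each transgene was highest in its own line at DMSO: FGFR1 had a median of 428 CPM in the FGFR1 line against 7.05 CPM in GFP cells, FGF3 147.6 CPM against 0 CPM, and FGFR2 157.2 to 548 CPM in its 4 lines against 14.02 CPM. All 6 luminal markers (ESR1, PGR, GATA3, FOXA1, KRT8 and KRT18) were above 1 CPM in all 647 libraries. Of 9 fibroblast, blood and endothelial markers, COL1A1 had a median of 22.3 CPM, DCN 0.28 CPM and CD14 0.26 CPM, and the other 6 had a median of 0.

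Per transcript length, MYBL2 was the most abundant of the 6 genes and E2F8 the least. Over the 45 DMSO libraries of set 1 the median level was 49.7 TPM for MYBL2, 18.5 TPM for E2F1, 15.2 TPM for FOXM1, 3.43 TPM for E2F2, 2.53 TPM for E2F7 and 1.39 TPM for E2F8. All later levels are CPM, the count scaled to the library's TMM-adjusted total, and are compared only within a gene. A group of more than 5 libraries is given by its lowest, median and highest library, and smaller groups by every library.

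In the control lines of set 1 all 6 genes had their lowest median under palbociclib and the next lowest under FIIN-3 with fulvestrant and FGF2. Over 11 or 12 libraries a treatment, MYBL2 medians were 95.6 CPM with FGF2, 90.3 CPM with fulvestrant, FGF2 and trametinib, 85.4 CPM with fulvestrant and FGF2, 64.04 CPM with DMSO, 47.7 CPM with fulvestrant, 33.5 CPM with FGF2 and FIIN-3, 22.9 CPM with fulvestrant, FGF2 and FIIN-3, and 2.10 CPM with fulvestrant, FGF2 and palbociclib. Each neighbour in that order overlapped the next in range except the last, whose highest library was at 4.03 CPM, below the lowest at 18.7 CPM in the group before it. E2F1 kept the same order, with medians of 24.9 CPM at the top and 2.34 CPM under palbociclib. E2F7 had its highest median with FGF2 (13.3 CPM) and 9.47 CPM with fulvestrant and FGF2, 7.92 CPM with DMSO and 0.776 CPM under palbociclib, and FOXM1 had 36.2, 31.5, 20.3 and 3.04 CPM in the same 4 groups. E2F2 ran from 11.3 CPM with FGF2 to 0.328 CPM, and E2F8 from 6.35 CPM with fulvestrant, FGF2 and trametinib to 0.102 CPM.

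**Figure D1:**
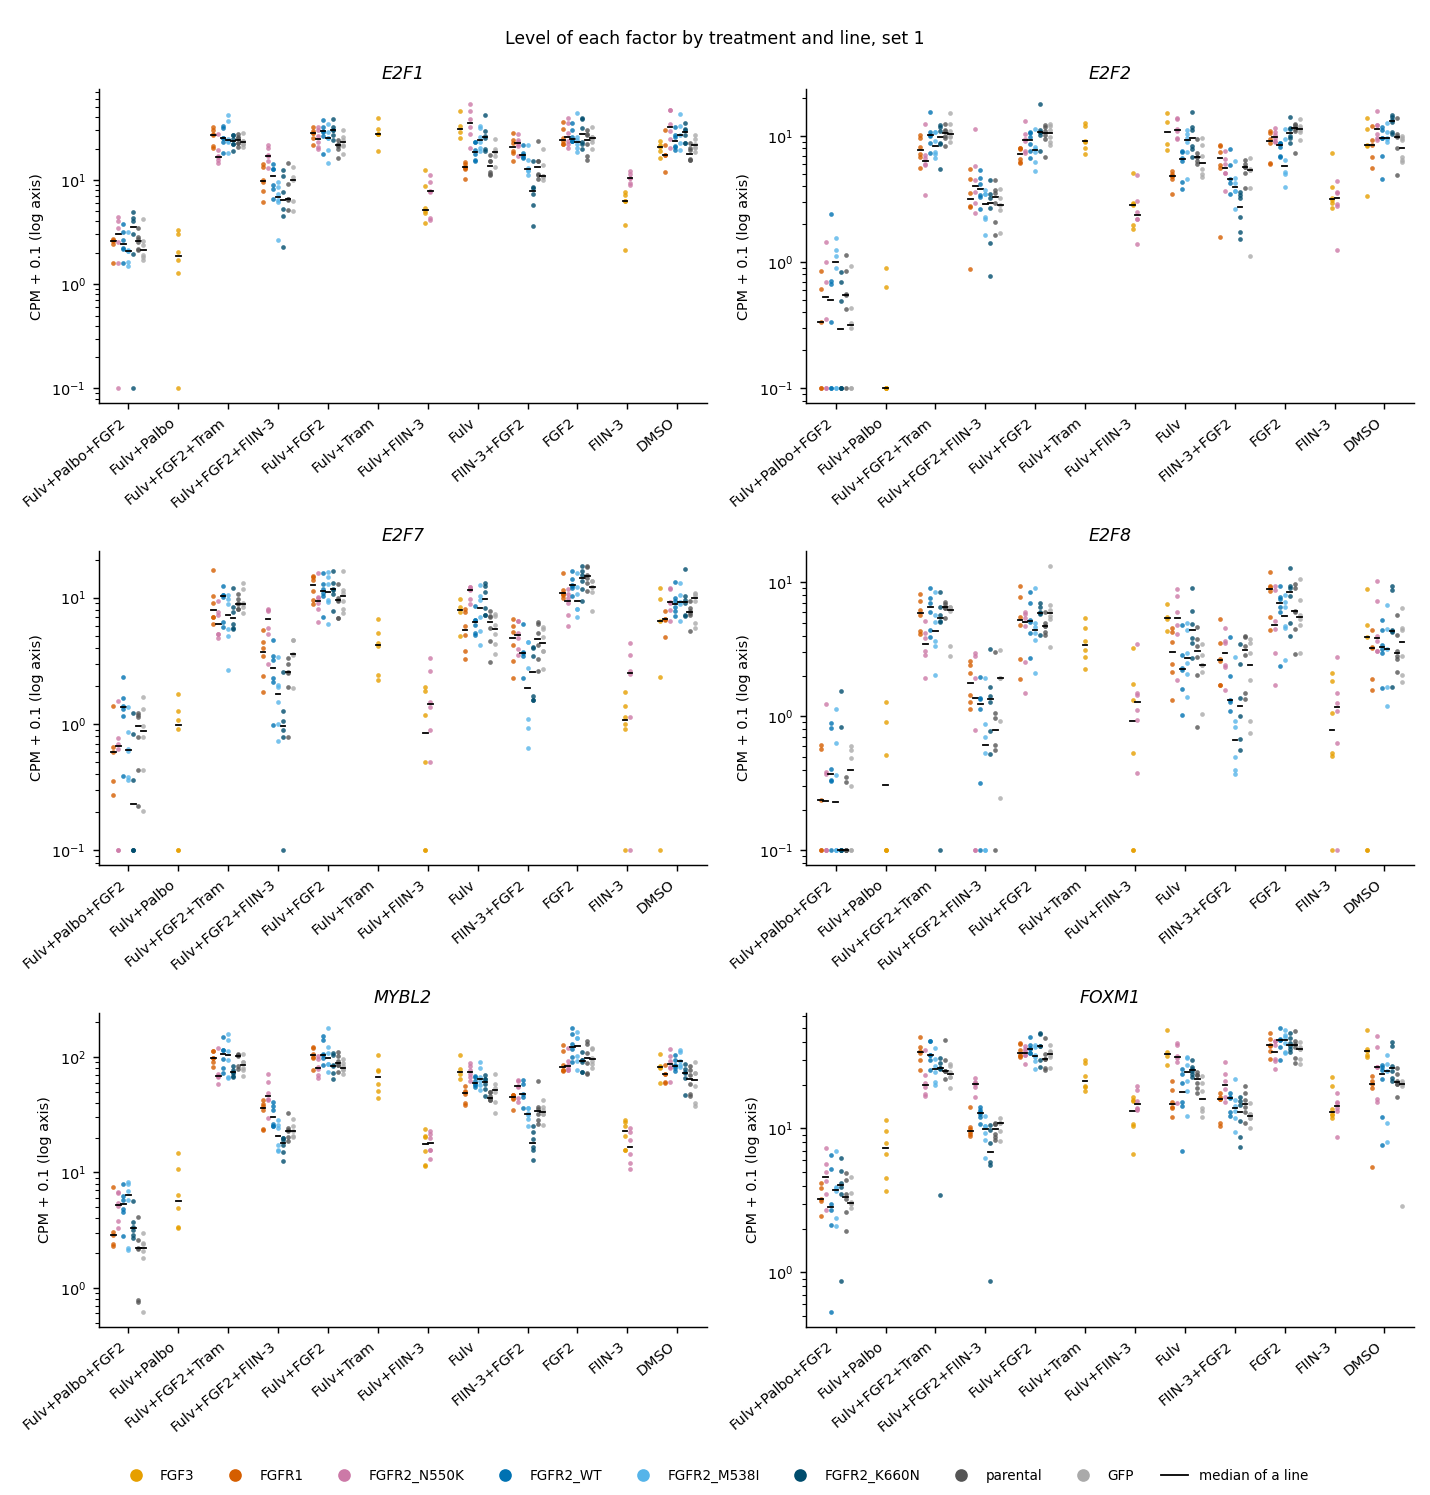
Level of each gene (CPM plus 0.1, log axis) in every library of set 1 by treatment, coloured by line; a black bar is the median of a line. The palbociclib groups have the lowest medians for every gene, with MYBL2 at 2.10 CPM in the control lines, except E2F7 in the FGF3 line (0.890 CPM with palbociclib, 0.746 CPM with fulvestrant and FIIN-3).

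Over single lines the highest group medians of set 1 were 123.4 CPM for MYBL2 (FGFR2 M538I with FGF2), 41.02 CPM for FOXM1 (wild-type FGFR2 with FGF2), 35.1 CPM for E2F1 (FGFR2 N550K with fulvestrant), 14.7 CPM for E2F7 (parental with FGF2), 13.05 CPM for E2F2 (FGFR2 K660N with DMSO) and 8.88 CPM for E2F8 (FGFR1 with FGF2). The lowest were palbociclib groups for all 6, with medians of 2.10 CPM for MYBL2, 2.75 CPM for FOXM1, 1.77 CPM for E2F1 and 0.132 CPM for E2F7, and of 0 for E2F2 and E2F8. In set 2 most groups held palbociclib: group medians were under 1 CPM in 36 of 48 groups for E2F2 and for E2F7 and in 38 of 48 for E2F8. Untreated FGF3 cells (labelled control) were the highest group of set 2 for 5 of the 6 genes. Their medians were 46.1 CPM for MYBL2, 24.5 CPM for FOXM1, 12.8 CPM for E2F2, 8.56 CPM for E2F7 and 6.11 CPM for E2F8. They were the only group of that set with the label control.

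**Figure D2:**
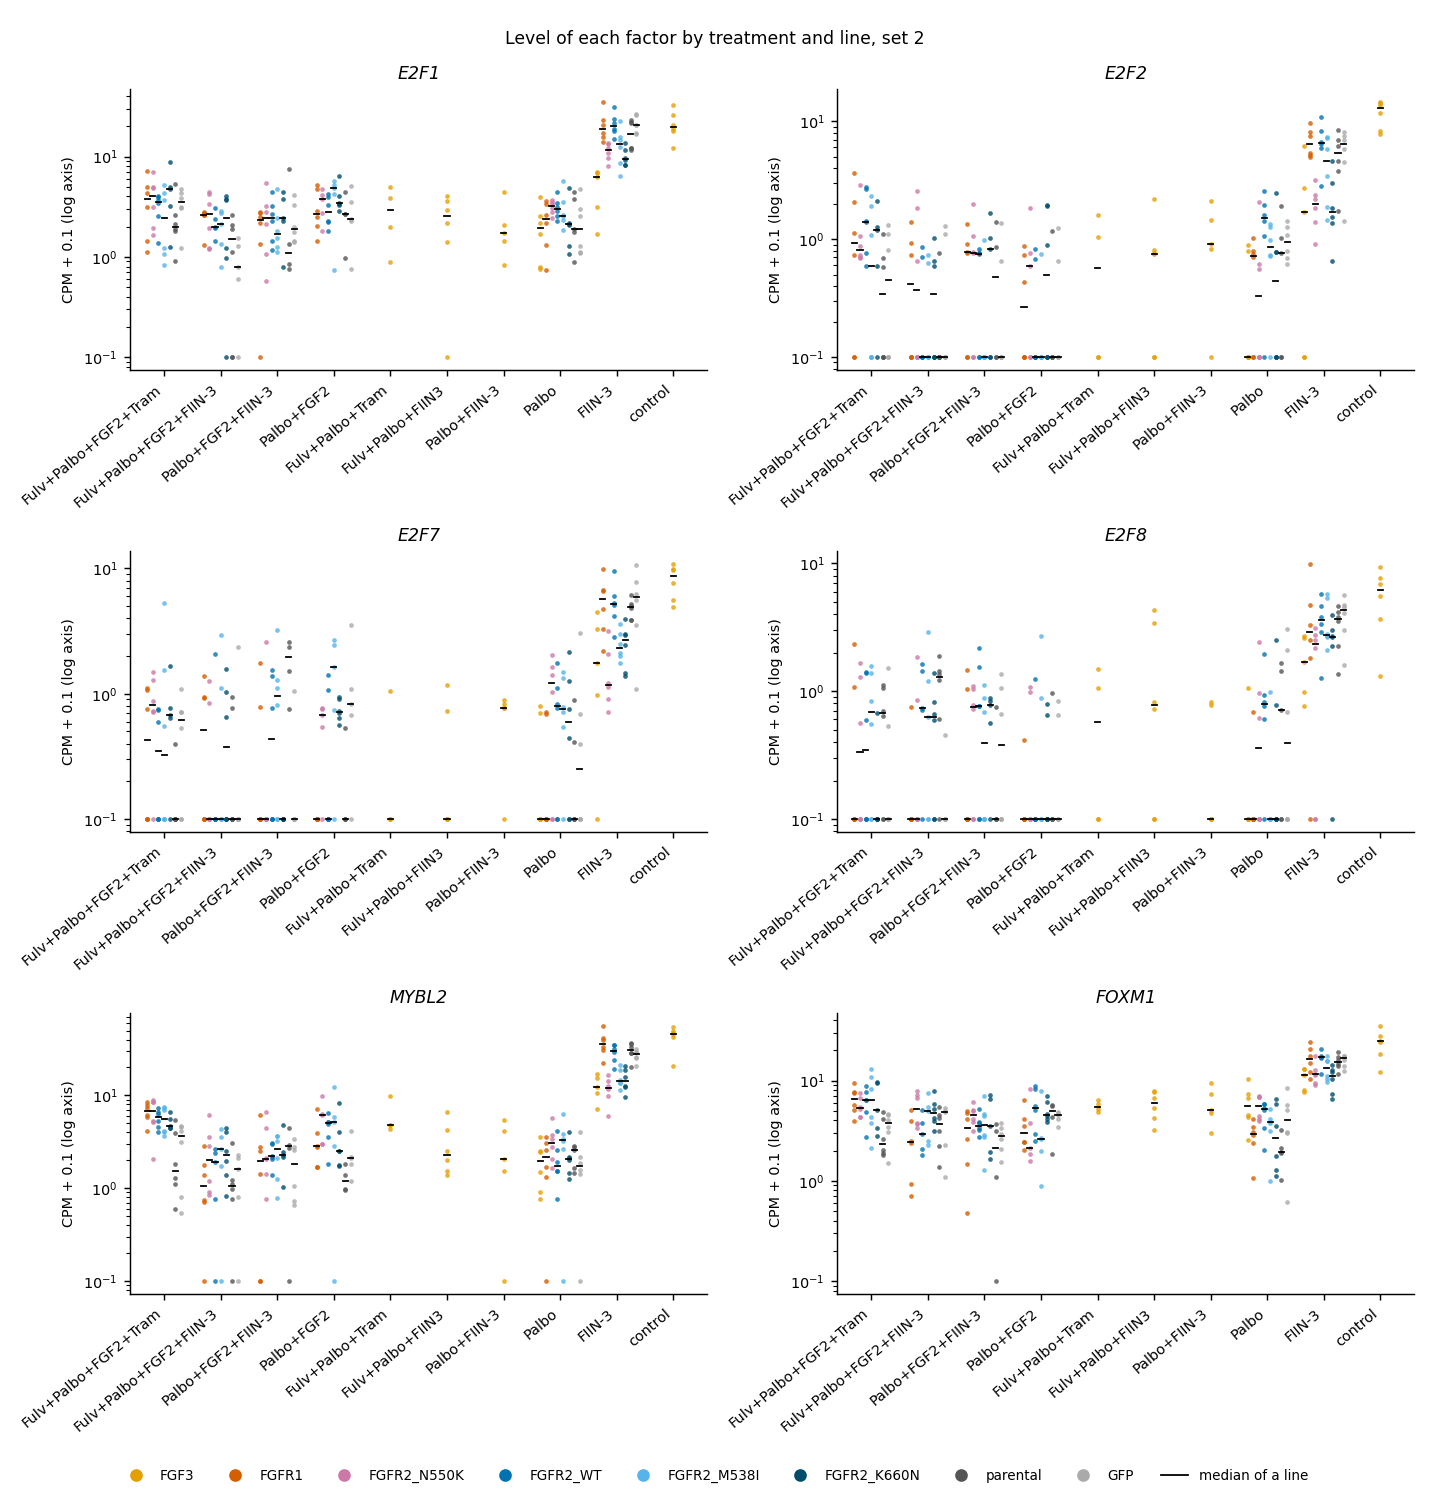
Level of each gene (CPM plus 0.1, log axis) in every library of set 2 by treatment, coloured by line; a black bar is the median of a line. Groups with palbociclib lie low, and untreated FGF3 cells (labelled control) reach a median of 46.1 CPM for MYBL2.

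The 6 genes followed each other across groups, by rank less closely in set 2 than in set 1. Between pairs of them, Pearson's r of the group means of log2 CPM ran from 0.887 to 0.970 over the 64 groups of set 1 (median 0.923, 15 pairs) and from 0.786 to 0.939 over the 48 groups of set 2 (median 0.868). Groups share lines, plates of unknown layout and drugs, so these r values are descriptions and carry no p. Among 8349 other genes with a mean of at least 3 log2 CPM, those most like E2F1 in set 1 included CDT1 and MCM10 (r 0.979 and 0.970, and in set 2 0.823 and 0.937). For E2F2 they were MCM10, MKI67 and CDT1 (r 0.972, 0.969 and 0.967). E2F7 was closest to DSCC1, CENPU and ORC6 (r 0.967, 0.962 and 0.961, the last at 0.721 in set 2), and E2F8 to CDCA5, BUB1B and CDC45 (r 0.946, 0.943 and 0.942). MYBL2 was closest to RRM2, AURKB and BIRC5 (r 0.984, 0.977 and 0.977, and in set 2 0.960, 0.914 and 0.949), and FOXM1 to PRC1, TACC3 and ESPL1 (r 0.980, 0.975 and 0.973).

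At DMSO none of the 6 genes passed the test in any line against GFP. Of the 42 tests (edgeR's quasi-likelihood test, adjusted p under 0.05 over all genes tested), 5 had an unadjusted p under 0.05 and none an adjusted one, while DESeq2 called 1, FOXM1 in FGF3 cells. The share of all genes called was 0.00787% for FGFR1, 0.00808% for wild-type FGFR2, 0.0159% for FGFR2 M538I, 1.6% for FGFR2 N550K, 1.51% for FGFR2 K660N, 7.18% for FGF3 and 0% for parental cells. FOXM1 in the FGF3 line came nearest. It stood at 48.0, 35.3, 32.2, 31.1 and 34.1 CPM in the 5 FGF3 libraries, against 2.78, 20.2 and 21.2 CPM in GFP. The groups did not overlap, and the log2 difference was 1.10 ± 0.35 (SE) with an adjusted p of 0.0662. The GFP library at 2.78 CPM is one of those with little MT-RNR2. Without the libraries that stand apart, FOXM1 was called in FGF3 cells (0.91, adjusted p = 0.00192), and leaving out that GFP library alone was enough. Without all of the libraries that stand apart, FOXM1 (0.71, adjusted p = 0.0154) and E2F1 (0.75, adjusted p = 0.0237) were also called in FGFR2 N550K cells.

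E2F2 in FGFR2 K660N cells was the other case of groups that did not overlap, at 10.2, 13.05 and 14.6 CPM against 6.11, 7.94 and 9.93 CPM in GFP, with a log2 difference of 0.62 ± 0.20 and an adjusted p of 0.18. Of the RB, MuvB and other E2F genes, CDKN1A, which encodes the CDK inhibitor p21, was the 1 of 21 called, higher by 1.26 ± 0.20 log2 in FGFR2 K660N and 1.83 ± 0.21 in FGF3 cells, and of 24 G1/S genes MCM5, a helicase subunit, was higher in FGF3 cells by 1.24 ± 0.29 and TYMS, thymidylate synthase, lower (-0.80 ± 0.23). Of 24 G2/M genes 3 were higher and 2 lower in FGF3 cells, and none was called in the other lines.

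FGF2 raised FOXM1, E2F7 and E2F8 in control and FGFR1 cells, and MYBL2 also in control cells. With the FGFR2 lines pooled, FOXM1, MYBL2 and E2F8 rose. In bulk libraries a change in the share of cells in a cycle stage and a change in RNA per cell cannot be told apart. FOXM1 stood at 27.9, 36.2 and 47.3 CPM with FGF2 in the control lines, against 2.78, 20.3 and 26.2 CPM with DMSO (12 libraries each). All 12 FGF2 libraries lay above all 12 DMSO libraries, and the log2 fold was 0.86 ± 0.17 (adjusted p = 0.00208). E2F7 rose by 0.67 ± 0.15, E2F8 by 0.82 ± 0.25 and MYBL2 by 0.66 ± 0.15. MYBL2 stood at 71.2, 95.6 and 137.97 CPM with FGF2, against 37.5, 64.04 and 90.2 CPM with DMSO, and the ranges overlapped. E2F1 (0.23 ± 0.12) and E2F2 (0.33 ± 0.15) did not pass. Of all genes tested in the control lines, 3.7% were higher. A term for the range of 96 title numbers a library falls in took the E2F8 value to 0.39 (adjusted p = 0.376).

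In the FGFR1 line E2F8 had the largest fold of the 6. Its levels were 4.34, 8.88 and 11.8 CPM with FGF2, against 1.79, 3.12, 4.32, 1.46 and 3.17 CPM in the 5 DMSO libraries, which did not overlap (1.53 ± 0.35, adjusted p = 0.00665). E2F7 (0.78 ± 0.21) and FOXM1 (1.05 ± 0.27) also rose with no overlap, against 14.4% of all genes higher. FOXM1 stood at 30.1, 37.6 and 46.01 CPM with FGF2, against 18.8, 22.8, 5.28, 20.3 and 21.3 CPM with DMSO. The library at 5.28 CPM stands apart, and without the libraries of that kind the FOXM1 fold was 0.84 and still called. MYBL2 did not pass (0.36 ± 0.19, adjusted p = 0.167), but was called with the title-number term (0.50, adjusted p = 0.00105) and by limma on log2(TPM + 1) (0.87, adjusted p = 0.0306).

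In the 4 FGFR2 lines FOXM1 rose by 0.66 ± 0.14 (adjusted p = 0.000144), MYBL2 by 0.30 ± 0.10 and E2F8 by 0.55 ± 0.21, and E2F2 fell by 0.29 on the log2 scale (SE 0.10, adjusted p = 0.0175). These 4 of 6 members were called where FGF2 changed 47.6% of all genes. The class values pool lines that were not tested singly. From DMSO to FGF2, MYBL2 medians went from 84.3 to 122.9 CPM in wild-type FGFR2 and from 92.4 to 123.4 CPM in M538I. They went from 73.3 to 92.3 CPM in K660N and from 87.2 to 83.2 CPM in N550K. E2F8 medians went from 3.20 to 6.92, 3.09 to 5.51, 4.24 to 8.42 and 3.72 to 4.70 CPM in the same line order. E2F2 stood at 3.82, 9.004 and 13.998 CPM with FGF2 (24 libraries), against 4.45, 10.7 and 15.8 CPM with DMSO (23 libraries), and the ranges overlapped almost fully. The E2F2 call was lost with no filter on low counts (adjusted p = 0.134), and on the TPM scale the difference was 0.04 by limma (adjusted p = 0.793), which called E2F7 there (0.46, adjusted p = 0.00122). With the libraries low in MT-RNR2 left out, E2F8 was no longer called (0.40, adjusted p = 0.152), nor was it with the title-number term (0.06, adjusted p = 0.861). FOXM1 without those libraries rose by 0.42. The FGF2 effect on E2F2 differed between FGFR2 and control lines by -0.60 ± 0.17 (adjusted p = 0.0468, with 1.03% of all genes lower). That call was lost on leaving out FGFR2 M538I DMSO replicate 2, 4 or 5, or with no filter on low counts.

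Most genes of the G2/M list rose with FGF2 in each class. Of 24 G2/M genes, 23 rose in the control lines, 19 in FGFR1 cells and 18 in FGFR2 cells, with median log2 folds of 1.07, 1.24 and 0.61, and PLK1, a mitotic kinase, rose by 0.88 ± 0.12 in FGFR2 cells. Of 24 G1/S genes, 7, 11 and 8 rose in the same classes (medians 0.39, 0.59 and 0.10), and 3 fell in FGFR2 cells. RRM2, a subunit of ribonucleotide reductase, rose by 0.59 ± 0.09 there, and PCNA, the polymerase clamp, fell by 0.63. Of the 21 RB, MuvB and other E2F genes 2, 9 and 8 rose, CDKN1A among them in each class. The median of all genes was within 0.01 of 0 in these 3 fits.

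Fulvestrant alone gave 1 call in 24 tests of these genes, with 10 unadjusted p under 0.05, of which 4 were in the control lines (median log2 fold of the 6 genes -0.36). MYBL2 in the FGFR2 lines was the call, at 45.8, 64.2 and 90.5 CPM with fulvestrant (24 libraries), against 47.2, 84.2 and 117.6 CPM with DMSO (23 libraries), a fall of 0.38 log2 (SE 0.08, adjusted p = 0.00225) with overlapping ranges. With no filter on low counts the adjusted p was 0.074. Of all genes, 1.86% were lower there, 1.55% were called in control lines, 0.0791% in FGFR1 cells and 0% in FGF3 cells. In FGFR1 cells MYBL2 stood at 38.6, 48.96 and 55.7 CPM with fulvestrant, against 59.1, 61.3, 71.02, 84.4 and 71.5 CPM with DMSO, with no overlap, and did not pass (-0.54 ± 0.18, adjusted p = 0.617). E2F2 did not overlap there either, at 3.40, 4.71 and 5.23 CPM with fulvestrant, against 5.43 to 11.996 CPM with DMSO (-0.83 ± 0.25, adjusted p = 0.617). In the FGFR2 lines E2F2 was called with the title-number term (-0.29, adjusted p = 0.0421). E2F1 in FGF3 cells was at 25.4, 28.5, 32.8 and 46.2 CPM with fulvestrant, against 20.6, 21.6, 16.1, 18.99 and 23.5 CPM with DMSO, and did not pass either (0.67 ± 0.23, adjusted p = 0.995). No member's fulvestrant effect was called as different from that in the control lines, E2F1 in FGF3 cells being nearest (1.03 ± 0.24, adjusted p = 0.189).

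When FGF2 was already present, fulvestrant was followed by no call in any of 18 tests by edgeR or DESeq2, of which 2 had an unadjusted p under 0.05. The background was 2.05% of genes in the control lines, 0.0408% in FGFR1 cells and 0.45% in FGFR2 cells. MYBL2 stood at 71.5, 85.4 and 110.7 CPM with fulvestrant and FGF2 in the control lines, against 71.2, 95.6 and 137.97 CPM with FGF2 alone. The log2 difference was -0.21 ± 0.10, and for FOXM1 it was -0.16 ± 0.10.

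FGF2 added to fulvestrant raised all 6 genes in the control lines and 5 of the 6 in FGFR1 cells. In the control lines MYBL2 stood at 71.5, 85.4 and 110.7 CPM with fulvestrant and FGF2, against 32.5, 47.7 and 71.1 CPM with fulvestrant, and FOXM1 at 25.5, 31.5 and 42.3 CPM, against 11.9, 19.7 and 24.6 CPM. Neither gene overlapped between the groups of 12, and they rose by 0.84 ± 0.10 (adjusted p = 6.53e-07) and 0.74 ± 0.12 (adjusted p = 4.67e-05). The E2F genes rose as well, E2F1 by 0.46 ± 0.12, E2F2 by 0.59 ± 0.14, E2F7 by 0.79 ± 0.17 and E2F8 by 1.13 ± 0.24, while 7.02% of all genes were higher. With the title-number term the E2F1 value was 0.38 (adjusted p = 0.0786).

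In FGFR1 cells E2F1 stood at 21.6, 28.1 and 32.4 CPM with fulvestrant and FGF2, against 10.2, 13.2 and 14.8 CPM with fulvestrant. This is a log2 fold of 1.04 ± 0.16 (adjusted p = 0.000106), and E2F2 (0.58 ± 0.20), E2F7 (1.07 ± 0.25), MYBL2 (1.11 ± 0.14) and FOXM1 (1.10 ± 0.16) also rose without overlap of the groups, against 12.7% of genes higher. The E2F2 call was lost with no filter on low counts (adjusted p = 0.166). In the FGFR2 lines MYBL2 (0.55 ± 0.09, adjusted p = 3.72e-06), FOXM1 (0.52 ± 0.11) and E2F7 (0.34 ± 0.13, adjusted p = 0.03) rose, against 16.9% of genes, and E2F7 was lost with no filter or with the title-number term (0.25, adjusted p = 0.208). E2F1 (0.04 ± 0.12) and E2F2 (0.06 ± 0.12) did not pass in FGFR2 lines. E2F1 stood there at 14.5, 28.02 and 38.6 CPM with fulvestrant and FGF2, against 15.02, 24.3 and 53.7 CPM with fulvestrant. These class values pool lines that moved in opposite directions, and the lines were not tested singly. From fulvestrant to fulvestrant with FGF2, E2F1 medians went from 18.3 to 29.05 CPM in wild-type FGFR2 and from 35.1 to 24.6 CPM in N550K. They went from 24.3 to 25.2 CPM in M538I and from 25.9 to 29.9 CPM in K660N. E2F2 medians went from 6.43 to 9.17, 11.02 to 9.18, 9.16 to 7.58 and 9.61 to 10.7 CPM in the same line order. No member's FGF2 effect under fulvestrant was called as different between FGFR1 or FGFR2 cells and the control lines by edgeR as designed. E2F1 came nearest, with a difference of 0.59 ± 0.19 in FGFR1 cells (adjusted p = 0.0595), called by DESeq2 (adjusted p = 0.0284) and by edgeR with the title-number term (adjusted p = 0.0391).

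The lists followed under fulvestrant. G2/M genes rose in 24, 24 and 22 of 24 cases in the control, FGFR1 and FGFR2 lines (medians 1.04, 1.498 and 0.57), and G1/S genes in 22, 21 and 9 of 24 (medians 0.72, 0.98 and 0.20). Of the RB, MuvB and other E2F list, 8, 10 and 10 of 21 rose and 1 fell in FGFR1 cells, with medians of 0.28, 0.49 and 0.16. CCND1, which encodes cyclin D1, rose by 0.68 ± 0.11 in control and 0.81 ± 0.09 in FGFR2 cells, and CCND3, which encodes cyclin D3, by 1.20 ± 0.14 in FGFR1 cells. The all-gene medians lay between -0.03 and 0. The groups with fulvestrant and FGF2, with fulvestrant, with FGF2 and with DMSO enter several of these comparisons, which therefore share libraries.

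**Figure D3:**
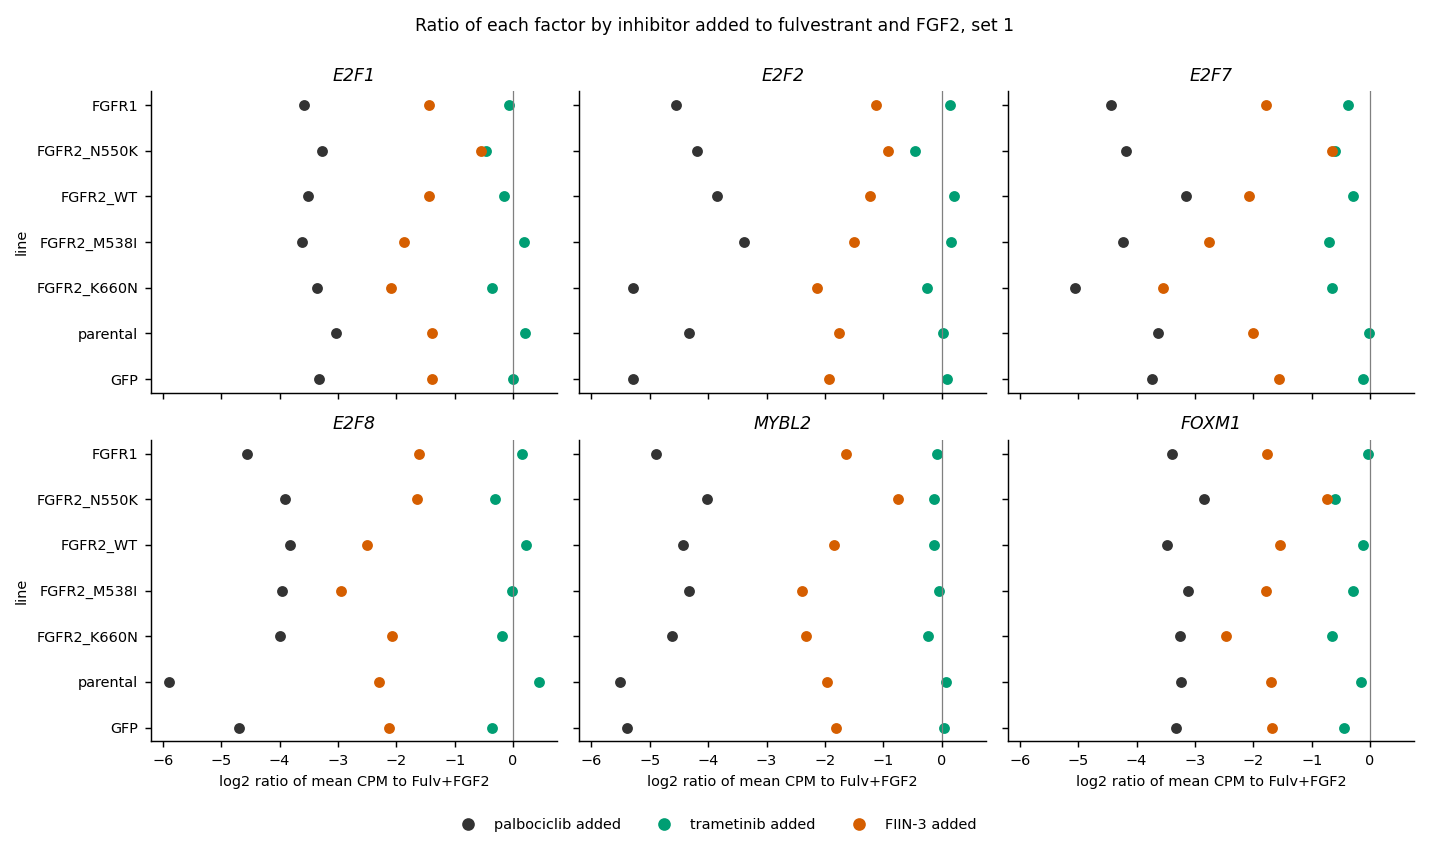
Log2 ratio of the mean CPM with palbociclib, trametinib or FIIN-3 added to fulvestrant and FGF2 over the mean with fulvestrant and FGF2, for 7 lines (rows) and the 6 genes (panels). Palbociclib points lie farthest below 0 in each line, FIIN-3 points lie between, with FGFR2 N550K nearest to 0 for 5 of the 6 genes (FGFR1 for E2F8), and trametinib points lie nearest to 0.

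FIIN-3 lowered all 6 genes where FGF2 was the only other agent in the control lines and in the FGFR2 lines other than N550K. MYBL2 stood at 12.7, 31.2 and 63.3 CPM with FGF2 and FIIN-3 in FGFR2 wild-type, M538I and K660N cells (17 libraries), against 74.4, 100.8 and 180 CPM with FGF2 (18 libraries). The groups did not overlap and MYBL2 fell by 1.86 log2 (SE 0.13, adjusted p = 6.69e-16). E2F7, with 0.548, 3.33 and 6.12 CPM against 6.87, 12.1 and 17.8 CPM, fell by 2.08 (SE 0.19), and E2F8 by 2.25 (SE 0.27), FOXM1 by 1.53 (SE 0.11), E2F2 by 1.14 (SE 0.18) and E2F1 by 1.09 (SE 0.16). E2F8 passed the filter through the libraries without FIIN-3 alone, so its test could go only one way. Of all genes 27.3% were lower in these lines. The lines were pooled and not tested singly. From FGF2 to FGF2 with FIIN-3, E2F1 medians went from 24.8 to 17.2 CPM in wild-type FGFR2. They went from 22.9 to 12.6 CPM in M538I and from 27.2 to 7.78 CPM in K660N. E2F2 medians went from 8.32 to 4.48, 5.73 to 3.84 and 10.5 to 2.66 CPM in the same line order. The E2F8 fall differed from that in the control lines by -0.92 ± 0.39 (adjusted p = 0.122), called with the title-number term (-1.0004, adjusted p = 0.0188).

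In the control lines, which carry no added receptor, the falls were 0.83 log2 for E2F1, 1.16 for E2F2, 1.54 for E2F7, 1.31 for E2F8, 1.502 for MYBL2 and 1.40 for FOXM1, the largest adjusted p being 0.000599, against 12.5% of genes lower. MYBL2 stood at 25.8, 33.5 and 62.3 CPM with FGF2 and FIIN-3, against 71.2, 95.6 and 137.97 CPM with FGF2. In FGFR1 cells MYBL2 (fell by 1.07), FOXM1 (fell by 1.38), E2F7 (fell by 1.33) and E2F8 (fell by 1.51) passed, against 15.2% of genes, and the activating pair did not. E2F1 was at 15.1, 20.6 and 28.1 CPM with FGF2 and FIIN-3, against 22.2, 24.3 and 35.6 CPM with FGF2 (-0.33 ± 0.17, adjusted p = 0.157), and E2F2 at -0.46 ± 0.30. The differences of E2F1 and E2F2 from the control lines were 0.52 ± 0.25 and 0.71 ± 0.34 and were not called (adjusted p = 0.274 and 0.265). Line by line, 27 of 42 pairs of a line and a gene did not overlap.

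With fulvestrant beside FGF2, FIIN-3 lowered all 6 genes in each class other than FGFR2 N550K. In the FGFR2 lines other than N550K, E2F1 stood at 2.18, 7.83 and 14.2 CPM with FIIN-3, against 14.5, 29.01 and 38.6 CPM without it (18 libraries each). It fell by 1.78 (SE 0.16, adjusted p = 3.39e-12), E2F2 by 1.55, E2F7 by 2.62, E2F8 by 2.52, MYBL2 by 2.16 and FOXM1 by 1.85, against 27% of all genes. FOXM1 stood at 0.775, 10.3 and 13.9 CPM against 25.9, 35.6 and 45.998 CPM, and its lowest library is the FGFR2 K660N one with little MT-RNR2. In the control lines the falls were 1.37, 1.81, 1.80, 2.11, 1.88 and 1.68 for E2F1, E2F2, E2F7, E2F8, MYBL2 and FOXM1, with no overlap in any gene, against 13.8% of genes. FGFR1 cells had falls of 1.41, 1.12, 1.77, 1.58, 1.61 and 1.74 in the same gene order, against 15.1% of genes. E2F8 in these 3 classes, and E2F2 in FGFR1 cells, passed the filter through the libraries without FIIN-3 alone. Over single lines 36 of 42 pairs did not overlap. The E2F7 fall in the other FGFR2 lines differed from that in the control lines by -0.87 ± 0.30 (adjusted p = 0.0516), called by DESeq2 (adjusted p = 0.0397) and with the title-number term (-0.86, adjusted p = 0.0466).

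Of the lists, all 24 G1/S and all 24 G2/M genes fell with FIIN-3 under fulvestrant and FGF2 in the control, FGFR1 and other FGFR2 lines, with medians of -1.54, -1.27 and -1.68 for G1/S and -1.67, -1.74 and -1.91 for G2/M genes, beside all-gene medians between -0.01 and 0.03. RRM2 fell by 2.77 and CDC45, part of the replicative helicase, by 2.29 in the other FGFR2 lines, and AURKB, a mitotic kinase, by 2.35. Of the 21 RB, MuvB and other E2F genes 12, 10 and 15 fell and 1, 1 and 3 rose, and CCND1 (fell by 1.97) and CCND3 (fell by 1.81) led in the other FGFR2 lines. With FGF2 alone, 24, 19 and 24 of the G1/S genes and all 24 G2/M genes fell in the same classes.

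FIIN-3 with fulvestrant and FGF2 lowered E2F1, E2F7, MYBL2 and FOXM1 less in FGFR2 N550K cells than in the other FGFR2 lines, and the differences for E2F2 and E2F8 were not called. E2F7 stood at 2.86, 6.69 and 7.98 CPM with fulvestrant, FGF2 and FIIN-3 in FGFR2 N550K cells, against 6.34, 9.38 and 15.7 CPM without FIIN-3, and did not pass (-0.64 ± 0.28, adjusted p = 0.109). The difference between its log2 fold and that of the other FGFR2 lines was 1.94 ± 0.38 (adjusted p = 0.000971). MYBL2 stood at 29.2, 46.1 and 71.5 CPM against 66.3, 79.9 and 101.3 CPM and fell by 0.69 (SE 0.18), with a difference from the other lines of 1.43 ± 0.23 (adjusted p = 6.92e-05). FOXM1 stood at 16.4, 20.3 and 22.2 CPM against 27.9, 33.2 and 37.2 CPM, with no overlap, and fell by 0.69 (SE 0.16, difference 1.12 ± 0.22, adjusted p = 0.000998). E2F1 was at -0.50 ± 0.19 (adjusted p = 0.0618, called by DESeq2 with 0.0337, difference 1.24 ± 0.29, adjusted p = 0.0102). E2F2 did not pass in FGFR2 N550K cells, and was called with no filter (-0.88, adjusted p = 0.0306) and by DESeq2 (adjusted p = 0.0477).

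For E2F2 and E2F8 the differences between FGFR2 N550K and the other FGFR2 lines under fulvestrant did not pass (0.69 ± 0.34 and 0.81 ± 0.63), with 95% intervals from 0.02 to 1.35 and from -0.43 to 2.05. E2F8 fell in FGFR2 N550K cells by 1.67 (SE 0.55, adjusted p = 0.0384), with 0, 1.26 and 2.85 CPM against 1.39, 4.97 and 5.93 CPM. It was lost with the title-number term (adjusted p = 0.265). FIIN-3 lowered 8.02% of all genes in FGFR2 N550K cells, and the difference from the other FGFR2 lines was higher for 1.41% of all genes.

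Without fulvestrant the picture in FGFR2 N550K cells was alike in MYBL2 (fell by 0.75, SE 0.15, adjusted p = 0.0052), at 40.5, 55.6 and 63.3 CPM with FGF2 and FIIN-3, against 76.9, 83.2 and 120 CPM with FGF2. E2F2, E2F7 and FOXM1 fell by 0.84, 0.85 and 0.73, and these 3 calls were lost with the title-number term (adjusted p = 0.0692, 0.111 and 0.126), while 4.2% of all genes were lower. The differences from the other FGFR2 lines were 1.12 ± 0.23 for MYBL2 (adjusted p = 0.00189), 1.23 ± 0.34 for E2F7 (adjusted p = 0.0367) and 0.80 ± 0.21 for FOXM1 (adjusted p = 0.0182), with 1.8% of all genes higher. E2F8 was at 1.40 ± 0.49 (adjusted p = 0.162), called with no filter (adjusted p = 0.0426) and with the title-number term (adjusted p = 0.025). The FOXM1 difference was lost with no filter on low counts (adjusted p = 0.0562).

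**Figure D4:**
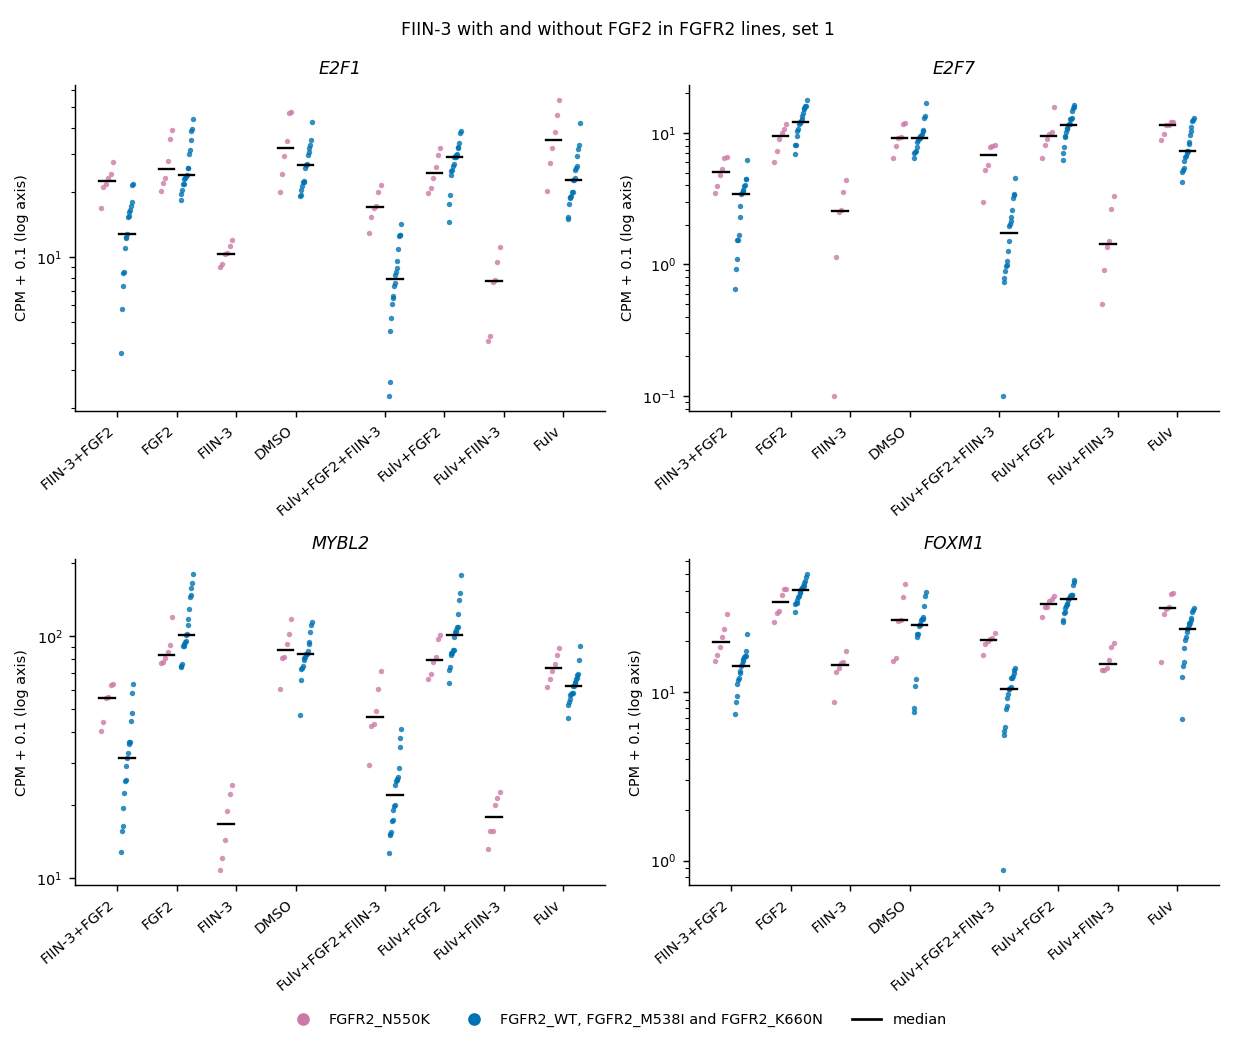
Level (CPM plus 0.1, log axis) of E2F1, E2F7, MYBL2 and FOXM1 in FGFR2 N550K libraries, beside the FGFR2 wild-type, M538I and K660N libraries, for 8 treatments of set 1. Of these lines only FGFR2 N550K had FIIN-3 without FGF2 in set 1. The separation appears with FIIN-3 and FGF2, where MYBL2 medians are 46.1 and 22.01 CPM with fulvestrant. Palbociclib groups, with MYBL2 medians of 5.17 and 4.58 CPM, and trametinib groups are not drawn.

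Only FGFR2 N550K cells among the receptor lines had FIIN-3 without ligand in set 1, and there all 6 genes were lower with FIIN-3. With fulvestrant or without it, no range of title numbers held libraries both with and without FIIN-3. An effect of FIIN-3 cannot be told apart from one of the range in these comparisons. MYBL2 stood at 10.7, 16.6 and 24.2 CPM with FIIN-3, against 60.4, 87.2 and 117.6 CPM with DMSO, with no overlap, and fell by 2.34 (SE 0.25, adjusted p = 6.19e-05). E2F1 fell by 1.68, E2F2 by 1.98, E2F7 by 2.04, E2F8 by 1.95 and FOXM1 by 0.92 (SE 0.26, adjusted p = 0.021), against 15.9% of genes. E2F2, E2F7 and E2F8 passed the filter through the DMSO libraries alone. FOXM1 fell by 1.21 without the libraries that stand apart. With fulvestrant the falls were 2.29, 2.09, 2.71, 1.98, 2.04 and 0.95 for E2F1, E2F2, E2F7, E2F8, MYBL2 and FOXM1, against 18.9% of genes, and E2F1 was at 4.01, 7.66 and 11.1 CPM with fulvestrant and FIIN-3, against 20.3, 35.1 and 53.7 CPM with fulvestrant. FOXM1 had the smallest fold of the 6 in both comparisons.

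FGF2 against no FGF2, both with FIIN-3, was compared in FGFR2 N550K cells after the data had been seen. MYBL2 stood at 40.5, 55.6 and 63.3 CPM with FIIN-3 and FGF2, against 10.7, 16.6 and 24.2 CPM with FIIN-3, a rise of 1.57 ± 0.19 (adjusted p = 1.25e-05) with no overlap. E2F1 rose by 1.09 ± 0.18 and E2F2 by 0.93 ± 0.32, against 10.7% of genes, and E2F7 (1.12 ± 0.40, adjusted p = 0.0512), E2F8 (1.11 ± 0.43) and FOXM1 (0.49 ± 0.19) did not pass. The E2F2 call was lost with the title-number term (adjusted p = 0.076) and with no filter (adjusted p = 0.0551), and E2F7 was called by DESeq2 (adjusted p = 0.0279), with its size factors (adjusted p = 0.0482) and with no filter (adjusted p = 0.0237). E2F2, E2F7 and E2F8 passed the filter through the libraries with FGF2 alone. With fulvestrant E2F1 (1.25 ± 0.24), E2F7 (1.90 ± 0.39) and MYBL2 (1.46 ± 0.19) rose, against 18.5% of genes, E2F7 having passed through the libraries with FGF2 alone, and E2F2 was called with the title-number term (adjusted p = 0.0166). FOXM1 was at 16.4, 20.3 and 22.2 CPM with fulvestrant, FIIN-3 and FGF2, against 13.4, 14.6 and 19.5 CPM without FGF2 (0.35 ± 0.17, adjusted p = 0.113).

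In the lists, the FGFR2 N550K difference from the other FGFR2 lines under fulvestrant was higher for 12 of 24 G1/S genes (median 0.94), 19 of 24 G2/M genes (median 1.04) and 2 of 21 RB, MuvB and other E2F genes (median 0.25), with an all-gene median of -0.02. RRM2 differed by 1.76 ± 0.23, AURKB by 1.72 ± 0.24 and CCND1 by 1.07 ± 0.19. Without fulvestrant the counts were 12, 22 and 0.

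Trametinib changed few of these genes by the test. Under fulvestrant and FGF2, MYBL2 stood at 67.96, 90.3 and 105.9 CPM with trametinib in the control lines, against 71.5, 85.4 and 110.7 CPM without it (0.04 ± 0.08, 95% interval -0.12 to 0.20), and E2F1 at 20.6, 22.96 and 27.9 CPM, against 16.2, 21.5 and 30.1 CPM (0.08 ± 0.09). Of 18 tests 3 passed. FOXM1 fell by 0.33 in the control lines (SE 0.11, adjusted p = 0.0269) and by 0.37 in the FGFR2 lines (SE 0.11, adjusted p = 0.00649), and E2F7 fell by 0.50 in the FGFR2 lines (SE 0.13, adjusted p = 0.0018), with 2.59, 7.40 and 12.3 CPM with trametinib, against 6.12, 10.7 and 16.3 CPM without. With the title-number term both FOXM1 calls were lost (-0.15 in the control and -0.27 in the FGFR2 lines), and the first was also lost with no filter (adjusted p = 0.0758). None of the 6 passed in FGFR1 cells, where 11.3% of all genes were called, and 16% and 13.7% of all genes were lower in the control and FGFR2 lines. No pair of a line and a gene was without overlap.

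More of the G2/M list than of the G1/S list passed the test under trametinib. Of 24 G2/M genes 20 fell in the control lines, 10 in FGFR1 cells and 24 in FGFR2 cells (medians -0.57, -0.31 and -0.72), and of 24 G1/S genes 2, 0 and 7 fell and 1 rose in the control lines (medians 0.03, 0.00 and -0.16). CDC20, the mitotic activator of the anaphase-promoting complex, fell by 0.86 and AURKA by 0.78 in FGFR2 cells, and CCND1 fell by 0.63, 1.18 and 1.18 in the 3 classes. Of the 21 RB, MuvB and other E2F genes 4, 1 and 8 fell and 1, 0 and 2 rose.

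Set against FIIN-3 in the same background of fulvestrant and FGF2, a comparison chosen after the data had been seen, trametinib libraries were higher in all 6 genes in each class but FGFR2 N550K. MYBL2 stood at 65.6, 82.2 and 158.6 CPM with trametinib in the other FGFR2 lines, against 12.6, 22.01 and 41.1 CPM with FIIN-3, a log2 difference of 2.06 ± 0.13 with no overlap. E2F7 differed by 2.15 ± 0.22, E2F8 by 2.59 ± 0.32, E2F1 by 1.71 ± 0.17, E2F2 by 1.63 ± 0.16 and FOXM1 by 1.55 ± 0.15, against 24.8% of genes higher. The control lines had differences from 1.37 (FOXM1) to 2.14 (E2F8), against 21.7% of genes, and FGFR1 cells from 1.24 (E2F2) to 1.71 (E2F8), against 13.6%. E2F8 in these classes, and E2F2 in FGFR1 cells, passed the filter through the trametinib libraries alone. In FGFR2 N550K cells MYBL2 alone passed (0.60 ± 0.20, adjusted p = 0.0464, lost with the title-number term, which called E2F8 with 0.0446), at 58.1, 68.4 and 118.5 CPM against 29.2, 46.1 and 71.5 CPM, with 6.75% of all genes higher. E2F1 was at 14.4, 16.6 and 27.6 CPM with trametinib there, against 12.9, 16.97 and 21.6 CPM with FIIN-3.

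All 6 genes had lower medians under palbociclib than in any other group of set 1 in the control, FGFR1 and FGFR2 lines. Under fulvestrant and FGF2, MYBL2 stood at 0.515, 2.10 and 4.03 CPM with palbociclib in the control lines, against 71.5, 85.4 and 110.7 CPM without it, and fell by 5.47 log2 (SE 0.19, adjusted p = 6.55e-21). E2F1 stood at 1.60, 2.34 and 4.12 CPM against 16.2, 21.5 and 30.1 CPM and fell by 3.19 (SE 0.15), and FOXM1 at 1.85, 3.04 and 4.76 CPM against 25.5, 31.5 and 42.3 CPM and fell by 3.30 (SE 0.14). E2F2, E2F7 and E2F8 fell by 4.73, 3.68 and 5.04, but they passed the filter on low counts through the libraries without palbociclib, here and in the FGFR1 and FGFR2 lines, so their test could go only one way. E2F8 had 16 reads in all in the 12 palbociclib libraries, of which 6 held none, against 535 reads in the others.

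In FGFR1 cells MYBL2 had 2.21, 7.34, 2.75, 2.30 and 2.95 CPM in the 5 libraries with palbociclib, against 77.4, 103.3 and 123.1 CPM without it, and E2F1 had 2.33, 2.49, 1.502, 2.56 and 2.602 CPM against 21.6, 28.1 and 32.4 CPM. They fell by 4.93 (SE 0.28) and 3.62 (SE 0.21), and FOXM1, with 3.73, 3.05, 2.38, 4.09 and 3.12 CPM against 31.003, 33.3 and 38.99 CPM, by 3.43 (SE 0.19). In the FGFR2 lines MYBL2 stood at 2.02, 4.85 and 8.24 CPM with palbociclib, against 63.9, 91.96 and 178.3 CPM without it, and fell by 4.36 (SE 0.13), E2F1 by 3.42 and FOXM1 by 3.16. Of all genes 14.6%, 8.32% and 17.6% were lower in the control, FGFR1 and FGFR2 lines. In each of 7 lines and for each of the 6 genes, every palbociclib library lay below every library without it (42 of 42 pairs). Overlap was not counted for other genes.

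The fall of MYBL2 was smaller in FGFR2 than in control lines by 1.09 ± 0.23 log2 (adjusted p = 0.0264), one of 0.0784% of genes with a higher difference. Its palbociclib libraries stood at 2.02, 4.85 and 8.24 CPM in FGFR2 cells and 0.515, 2.10 and 4.03 CPM in the control lines. Without the libraries that stand apart the difference was 1.11 (adjusted p = 0.0108). RRM2 was the other list gene with such a call, at 1.49 ± 0.28. No other member was called as different between classes under palbociclib.

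All 24 G1/S and all 24 G2/M genes fell with palbociclib in the 3 classes, with medians of -2.87, -2.88 and -2.90 for G1/S and -3.80, -3.61 and -3.58 for G2/M genes, beside all-gene medians between 0.02 and 0.03. RRM2 fell by 5.87, CDC45 by 3.90 and CDK1, the mitotic cyclin-dependent kinase, by 4.06 in FGFR2 cells. Of the 21 RB, MuvB and other E2F genes 12, 10 and 13 fell and 1 rose in each class, and CDKN1A fell by 1.80, 1.83 and 1.29.

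Palbociclib was also lower than FIIN-3, both under fulvestrant and FGF2, in MYBL2 and FOXM1 in each class, and E2F8 was too low to be tested. E2F2 and E2F7 in each class, and E2F1 in FGFR1 and FGFR2 N550K cells, were called lower too but passed the filter through the FIIN-3 libraries alone, so their test could go only one way. MYBL2 differed by -3.57 ± 0.21 in the control lines, -3.28 ± 0.31 in FGFR1, -2.29 ± 0.16 in the other FGFR2 and -3.29 ± 0.25 in FGFR2 N550K cells, and FOXM1 by -1.59 ± 0.15, -1.65 ± 0.25, -1.38 ± 0.22 and -2.12 ± 0.24. MYBL2 stood at 3.20, 5.17 and 6.71 CPM with palbociclib in FGFR2 N550K cells, against 29.2, 46.1 and 71.5 CPM with FIIN-3. Of all genes 4.91%, 7.45%, 19.4% and 4.63% were lower in these 4 classes. CCND1 moved the other way, higher with palbociclib by 1.91 ± 0.09, 2.63 ± 0.18, 2.79 ± 0.12 and 1.78 ± 0.18.

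In the FGF3 line of set 1, FIIN-3 and palbociclib lowered the genes with no FGF2 added. With FIIN-3 against DMSO, MYBL2 stood at 15.5, 22.9 and 28.2 CPM, against 82.3, 79.9, 105.5, 59.7 and 83.7 CPM, and fell by 1.97 (SE 0.21, adjusted p = 3.14e-06). E2F1 fell by 1.85, E2F2 by 1.42 and FOXM1 by 1.31 (SE 0.23), and E2F7 and E2F8 were not tested, while 6.03% of all genes were lower. E2F1 passed the filter through the DMSO libraries alone. Of the 5 DMSO libraries 4 hold under 0.333 of the median count of the set, so no fit could be made without them, and the E2F2 call was lost without DMSO replicate 2 or 4 (adjusted p = 0.0617 and 0.101). With fulvestrant, FIIN-3 lowered all 6, E2F1 by 2.36, E2F2 by 1.93, E2F7 by 2.91, E2F8 by 2.29, MYBL2 by 2.19 and FOXM1 by 1.42, against 7.79% of genes. E2F2, E2F7 and E2F8 passed the filter through the fulvestrant libraries alone, so their test could go only one way, and E2F8 had 19 reads in all in the 6 libraries with FIIN-3, of which 2 held none. E2F1 stood at 3.72, 5.08 and 12.5 CPM with fulvestrant and FIIN-3, against 25.4, 28.5, 32.8 and 46.2 CPM with fulvestrant.

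Trametinib under fulvestrant gave no call in FGF3 cells by edgeR, with 2 unadjusted p under 0.05, and 1 by DESeq2, and 7.43% of all genes were called. FOXM1 was nearest, at 17.9, 21.2 and 29.5 CPM with fulvestrant and trametinib, against 27.2, 31.5, 33.9 and 48.4 CPM with fulvestrant (-0.64 ± 0.20, adjusted p = 0.0522). DESeq2 called it (adjusted p = 0.0334), as did edgeR with no filter on low counts or with the title-number term, which also called E2F7 (-1.03, adjusted p = 0.0421). Against FIIN-3 with fulvestrant, a comparison chosen after the data had been seen, trametinib libraries were higher in E2F1 (2.10 ± 0.25), E2F2 (1.71 ± 0.29), E2F7 (1.95 ± 0.51), E2F8 (1.64 ± 0.53), MYBL2 (1.93 ± 0.21) and FOXM1 (0.76 ± 0.21), with 9.02% of genes higher, and E2F8 and FOXM1 were lost without shallow libraries. E2F2 and E2F7 passed the filter through the trametinib libraries alone.

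Palbociclib under fulvestrant lowered MYBL2 in FGF3 cells by 3.57 (SE 0.29), at 3.22, 5.53 and 14.6 CPM with palbociclib, against 78.02, 71.5, 64.1 and 104.6 CPM with fulvestrant. FOXM1 fell by 2.35 (SE 0.28) and E2F1 fell by 4.16, against 5.56% of genes, E2F1 having passed the filter through the fulvestrant libraries alone, and E2F2, E2F7 and E2F8 had 4, 12 and 6 reads in all with palbociclib, with medians of 0, 0.890 and 0.209 CPM, against 10.6, 7.93 and 5.32 CPM with fulvestrant. G1/S genes fell in 23 of 24 cases with palbociclib (median -3.01) and G2/M genes in 23 of the 23 tested (median -3.27).

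In set 2, palbociclib alone was compared with FIIN-3 alone, without FGF2 or fulvestrant. E2F1 in the control lines stood at 0.785, 1.80 and 4.63 CPM with palbociclib, against 11.6, 20.5 and 26.6 CPM with FIIN-3, MYBL2 at 0, 1.79 and 3.96 CPM against 20.3, 28.9 and 36.8 CPM, and FOXM1 at 0.514, 2.93 and 8.42 CPM against 11.4, 16.04 and 19.03 CPM. None of the 3 genes overlapped, and they differed by -3.00 ± 0.25, -3.89 ± 0.22 and -2.40 ± 0.27, with 5.09% of all genes lower. All 6 genes passed the filter in the control lines through the FIIN-3 libraries alone, as did each gene tested in FGFR1 cells and E2F1 and MYBL2 in FGFR2 and MYBL2 in FGF3 cells, so these tests could go only one way and the values stand as a description. FGFR1 cells had differences of -3.26 ± 0.35, -4.19 ± 0.35 and -2.59 ± 0.32, with 3.37% of genes lower, and the FGFR2 lines of -2.24 ± 0.15, -2.68 ± 0.18 and -1.64 ± 0.15, with 11.1% lower. In these lines MYBL2 stood at 0, 2.28 and 6.15 CPM with palbociclib, against 5.91, 15.2 and 34.7 CPM with FIIN-3.

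The MYBL2 difference between palbociclib and FIIN-3 was smaller in FGFR2 than in control lines by 1.20 ± 0.33 (adjusted p = 0.0345, with 1.23% of genes higher). In both classes MYBL2 passed the filter through the FIIN-3 libraries alone. Under palbociclib it had 30 to 63 reads in all in each line, so that side of the difference rests on few reads. Under FIIN-3 its median was 15.2 CPM in FGFR2 cells and 28.9 CPM in the control lines, and under palbociclib 2.28 CPM and 1.79 CPM. The FGFR2 value pools lines that differed under FIIN-3, and the lines were not tested singly. Wild-type FGFR2, at a median of 30.1 CPM, lay near the control lines. M538I, K660N and N550K were lower, at 14.1, 14.2 and 12.06 CPM. Under palbociclib the medians of these lines were 1.64, 3.18, 1.98 and 2.96 CPM in the same order. In FGF3 cells MYBL2 stood at 0.658, 1.89 and 3.48 CPM with palbociclib, against 6.96, 16.8, 12.1, 10.6 and 15.1 CPM in the 5 FIIN-3 libraries, and differed by -2.69 ± 0.38, with 4.03% of genes lower. FOXM1 did not pass there (-0.83 ± 0.33, adjusted p = 0.131). Against the control lines, the FGF3 difference was 1.56 for FOXM1 (adjusted p = 0.0589) and 1.66 for E2F1 (adjusted p = 0.106), both called by DESeq2, with no filter and without the parental palbociclib library that stands apart.

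On top of palbociclib the effects that could be tested were few, since E2F2, E2F7 and E2F8 were mostly under 1 CPM. FGF2 added to palbociclib raised MYBL2 in the FGFR2 lines by 0.85 ± 0.24 (adjusted p = 0.00362), at 0, 4.39 and 12.2 CPM with FGF2 and palbociclib (22 libraries), against 0, 2.28 and 6.15 CPM with palbociclib (24 libraries), and 18.5% of all genes were higher. It passed the filter through the libraries with FGF2 alone. E2F1 (0.28 ± 0.19) and FOXM1 (0.04 ± 0.22) did not pass there. FOXM1 was the member tested in the control lines (0.52 ± 0.35, adjusted p = 0.532), with 1.11% of all genes called. FIIN-3 added to palbociclib and FGF2 lowered MYBL2 in the FGFR2 lines other than N550K by 0.89 (SE 0.28, adjusted p = 0.00621), at 0.691, 2.14 and 4.67 CPM with FIIN-3, against 0, 3.96 and 12.2 CPM without it, with 25% of all genes lower, and passed the filter through the libraries without FIIN-3 alone.

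FIIN-3 did not change MYBL2 by the test in FGFR2 N550K cells under palbociclib and FGF2, where it stood at 0.672, 1.98 and 6.56 CPM with FIIN-3 (6 libraries), against 6.06, 2.86, 9.86, 6.14 and 2.93 CPM in the 5 libraries without it (-0.97 ± 0.46, adjusted p = 0.132), with 20.9% of all genes called. The difference from the other FGFR2 lines was -0.10 ± 0.58 for MYBL2, with a 95% interval from -1.23 to 1.04. FOXM1 in the control lines was at -0.81 ± 0.33 (adjusted p = 0.124), with 9.45% of genes called. Fulvestrant added to palbociclib, FGF2 and FIIN-3 gave no call in 4 tests by edgeR or DESeq2, none with an unadjusted p under 0.05, with 3.65% of all genes called in the control and 5.32% in the FGFR2 lines. In FGFR1 cells no member was tested in these 3 comparisons.

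Trametinib against FIIN-3, both with fulvestrant, palbociclib and FGF2, went with more MYBL2 in the FGFR1 and FGFR2 lines. In FGFR1 cells MYBL2 stood at 4.08, 6.66 and 8.50 CPM with trametinib, against 0, 0.966 and 2.72 CPM with FIIN-3, with no overlap, a log2 difference of 2.47 ± 0.44 (adjusted p = 7.79e-05). FOXM1 differed by 1.39 ± 0.40, with 12.6% of genes higher. Both passed the filter through the trametinib libraries alone, as did MYBL2 and E2F1 in the FGFR2 lines, so these tests could go only one way. In the FGFR2 lines MYBL2 differed by 1.31 ± 0.23 (adjusted p = 3.15e-06), E2F1 by 0.64 ± 0.26 (adjusted p = 0.0297, or 0.0512 with no filter) and FOXM1 by 0.47 ± 0.20 (adjusted p = 0.0367), with 26.1% of genes higher. In the control lines FOXM1 was the member tested and did not pass (-0.16 ± 0.29), with 39.1% of all genes called. MYBL2, too low to be tested there, stood at 0.437, 2.38 and 5.27 CPM with trametinib, against 0, 1.01 and 2.96 CPM with FIIN-3.

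The FGF3 line was the one with an untreated group in set 2. Palbociclib lowered MYBL2 there by 4.49 (SE 0.31), at 0.658, 1.89 and 3.48 CPM, against 20.4, 46.1 and 55.1 CPM untreated, E2F1 by 3.43 and FOXM1 by 2.00, with no overlap and 4.8% of all genes lower, and each gene tested passed the filter through the untreated libraries alone. E2F2 and E2F7 had 4 reads each in all with palbociclib, and medians of 0 CPM against 12.8 and 8.56 CPM. FIIN-3 lowered MYBL2 by 1.81 (SE 0.25), E2F1 by 2.12, E2F2 by 2.44, E2F7 by 2.01 and FOXM1 by 1.19, with 4.23% of genes lower, E2F1, E2F2 and E2F7 having passed through the untreated libraries alone. The E2F7 call was lost with the title-number term (adjusted p = 0.0672) or any of 7 libraries left out and the E2F2 call with FIIN-3 replicate 2 or 5 left out. Those FIIN-3 folds in FGF3 cells may be read beside the ones of set 1, which came from other libraries: -1.97 for MYBL2, -1.85 for E2F1 and -1.31 for FOXM1. FIIN-3 added to palbociclib left FOXM1, the member tested, at -0.03 ± 0.37, with 10.3% of all genes called. With fulvestrant and palbociclib, MYBL2 had 9.84, 4.20, 4.73 and 4.74 CPM in the 4 libraries with trametinib, beside a median of 2.16 CPM in the 6 with FIIN-3.

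**Figure D5:**
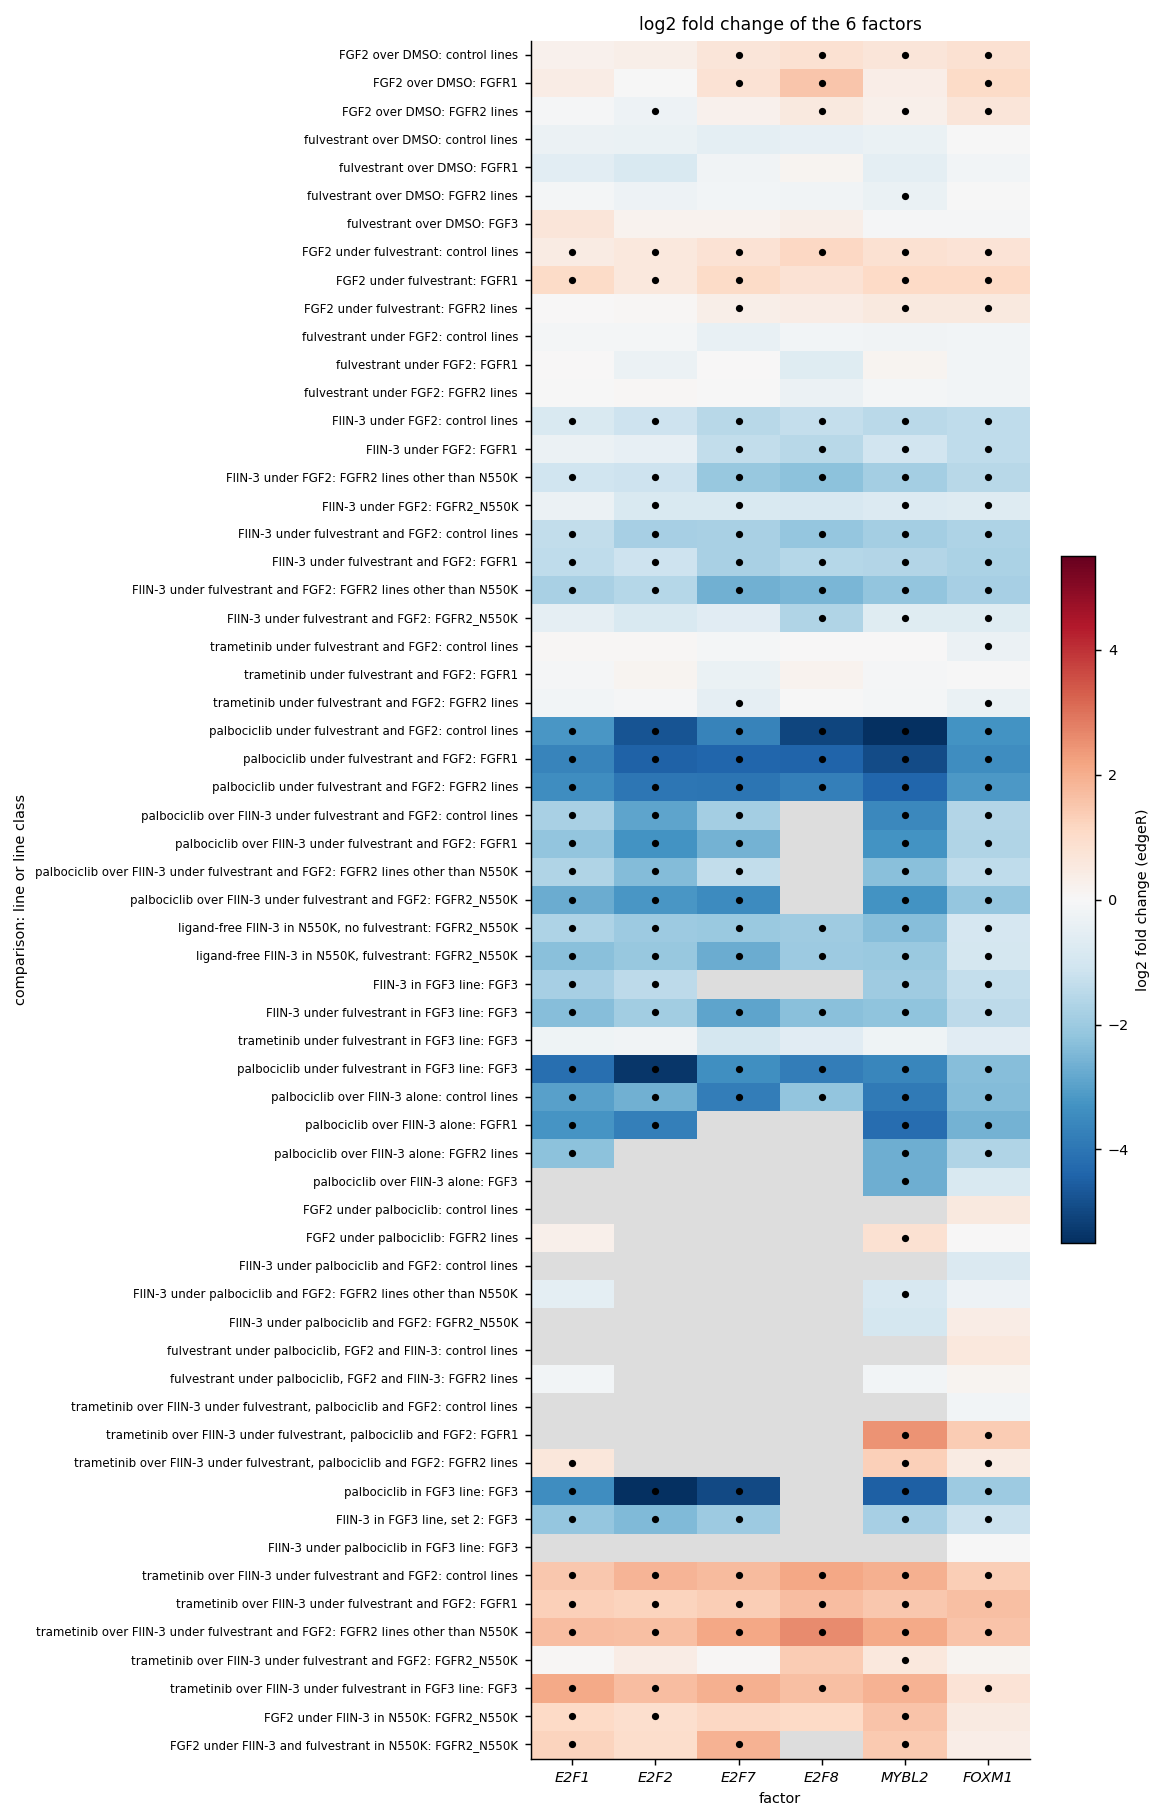
Log2 fold changes of the 6 genes (columns) in each comparison (rows, tested treatment over the one it is set against) from edgeR; a dot marks an adjusted p under 0.05 and grey a gene not tested. Palbociclib rows are the darkest blue (MYBL2 in the control lines at -5.47), and the rows of trametinib added to fulvestrant and FGF2 are pale, from -0.50 for E2F7 in FGFR2 lines.

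Over all 71 comparisons of treatments or lines, 68 had at least 1 member tested. Of the member tests there, 17.7% (61 tests) were called higher and 39.7% lower, beside 8.89% and 9.75% of all gene tests in the same comparisons. Of the higher calls 13, and of the lower calls 59, were of genes that passed the filter through the libraries of the higher group alone. In 23 fits of a difference between classes of lines, each with 2 to 6 members tested, 9 member tests were called higher and 1 lower. Of the member tests, 37 had an unadjusted p under 0.05. The calls fell in 5 of the 23 fits, where 0.0784% to 1.8% of all genes were called in the direction of the member calls. The share of all genes was not taken over the 23 fits together, so the 37 cannot be set against a background.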

How the data were processed

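RNA of T47D wells was sequenced by SMART-Seq2 in 647 libraries. The gene counts were deposited by the authors as 1 table of 54592 genes, aligned with STAR to hg19 per the submitters' processing notes. No source used here names the counting tool or annotation. The authors also deposited log2(TPM + 1) values, of which 87 columns (DMSO and FGF2) were used for levels per length and as an alternative, and 560 were not used.

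Counts were tested with edgeR 4.0.16 in R 4.3.3: TMM scaling, genes kept by a minimum count of 10, a quasi-likelihood fit on the libraries of the comparison with line as an added term, and Benjamini-Hochberg adjustment over all genes tested, with a threshold of 0.05. SE is the size of the log2 fold divided by the square root of F. In all, 64 comparisons and 23 differences between classes of lines were fitted, and 7 comparisons were added after the data had been seen. Alternatives were DESeq2 1.42.0 (its size factors and its Wald test), no filter, a term for ranges of 96 title numbers, limma 3.58.1 on log2(TPM + 1), leaving out shallow libraries (under 0.333 of the set's median total, 20 in set 1 and 2 in set 2) or those with under 5% MT-RNR2, and leaving out single libraries. Log2 CPM used a prior count of 2. The fits were tested on simulated data. Over 1559 pairs of replicates, chi-square per degree of freedom was at least 2.64 (median 11.1), so none was counted as 1 library. Intervals (95%) were taken from the fold and its SE and cover the spread between libraries.

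The 6 members are named in every comparison, list genes as up to 2 called members of smallest p a comparison, and the 3 genes of highest r as the most alike, of which 1 for E2F1 is not reported here. Members and lists were chosen with earlier results of these data known. The labels give all samples the same replicate value, so numbers within a group only name a library.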

Additional observations from a re-analysis of the deposited data

Results flagged for a closer look

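In each group of line and treatment (64 in set 1 and 48 in set 2) the mean log2 CPM of the 6 genes was compared between libraries. In 10 of these groups 1 library lay far from the others, by a gap relative to the group's range above Dixon's 95% value, and chance alone flags about 1 in 20 groups. Low libraries were parental DMSO replicate 4 (3.44, others 3.77 to 3.88, ratio 0.766), FGFR2 N550K FGF2 replicate 6 (3.79, others 4.20 to 4.32, ratio 0.770), FGFR2 K660N fulvestrant with FGF2 replicate 1 (3.92, others 4.31 to 4.53, ratio 0.633), GFP FIIN-3 replicate 5 in set 2 (2.98, others 3.38 to 3.60, ratio 0.640), and 3 that also have little MT-RNR2. These 3 were FGFR2 K660N with fulvestrant, FGF2 and trametinib replicate 3 (2.84, others 3.87 to 4.24, ratio 0.731), FGFR2 K660N with fulvestrant, palbociclib and FGF2 replicate 4 (-0.94, others 0.41 to 0.65, ratio 0.851) and untreated FGF3 replicate 3 in set 2 (3.17, others 3.90 to 4.22, ratio 0.695), which holds 619509 reads. High libraries were FGF3 fulvestrant replicate 4 (4.55, others 4.09 to 4.13, ratio 0.899), FGFR2 K660N with fulvestrant, FGF2 and FIIN-3 replicate 3 (2.59, others 1.55 to 1.90, ratio 0.663) and GFP with palbociclib, FGF2 and FIIN-3 replicate 1 in set 2 (0.94, others 0.55 to 0.68, ratio 0.655).

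Log2 effects differed between classes of lines in 10 tests of the difference itself (edgeR, adjusted p under 0.05). The FGF2 effect on E2F2 was lower in FGFR2 than in control lines by 0.60 (difference -0.60). That call was lost with no filter on low counts, or on leaving out FGFR2 M538I DMSO replicate 2, 4 or 5. The FIIN-3 effect was less negative in FGFR2 N550K than in the other FGFR2 lines, under FGF2 by 0.80 for FOXM1, 1.23 for E2F7 and 1.12 for MYBL2, and under fulvestrant and FGF2 by 1.12 for FOXM1, 1.94 for E2F7, 1.24 for E2F1 and 1.43 for MYBL2. Without fulvestrant the FOXM1 difference was lost with no filter on low counts. MYBL2 differed between FGFR2 and control lines by 1.09 for palbociclib under fulvestrant and FGF2 and by 1.20 for palbociclib over FIIN-3 alone. The value of 1.20 pools wild-type FGFR2, which lay near the control lines under FIIN-3, with the mutant lines, which were lower.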

How the results depend on the processing

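Counts of members called stayed within 1.5 times of the values in the report under the alternatives run, apart from these. For lines at DMSO, 0 calls became 1 with no filter, 1 by DESeq2 and 3 without the libraries with little MT-RNR2. For fulvestrant over DMSO, 1 became 0 with no filter and 2 with the title-number term. Trametinib under fulvestrant and FGF2 went to 1 with that term, against 3 as designed. Trametinib in FGF3 cells gave 1 with no filter, 1 by DESeq2 and 2 with the title-number term, against 0. Among called values the sign turned for FGF2 on E2F2 in FGFR2 lines, at 0.0395 on log2(TPM + 1). The causes were not tested. With 1 library left out, calls ran from 0 to 1 for lines at DMSO, 0 to 1 for trametinib in FGF3 cells, 3 to 5 for FIIN-3 in FGF3 cells of set 2 and 9 to 12 for differences between classes. Of 413 member values so recomputed, 390 kept their side of the threshold, 14 lost it, 9 gained it and 0 changed sign while called. Calls gained and lost were 9 and 0 by DESeq2, 1 and 0 with its size factors, 8 and 9 with no filter, 10 and 13 with the title-number term, 5 and 1 without the libraries with little MT-RNR2 and 0 and 2 without shallow ones. These counts cover only members that the designed fit tested. Members it did not test gave a further 12 calls by DESeq2, 13 with no filter and 8 with the title-number term. They gave 1 more without the libraries with little MT-RNR2, 1 without shallow ones and 2 with single libraries left out. DESeq2's size factors moved the median of all genes by -0.04 to 0.03, and log2(TPM + 1) by up to 0.25. Limma was run for DMSO and FGF2 libraries only. The fit without shallow libraries could not be made for FGF3 cells against or over DMSO, nor the title-number term for FIIN-3 without ligand in FGFR2 N550K cells. In the latter no range held libraries both with and without FIIN-3. No paired analysis was possible because the labels give every sample the same replicate value. Depth limits E2F2, E2F7 and E2F8 under palbociclib, where most libraries hold a few reads of each.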
